A study of Bos taurus with 20 samples.

Results

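The circadian clock genes sought here were NR1D1, PER1, PER2, CRY1, CLOCK, DBP, NFIL3, BHLHE40 and ARNTL (BMAL1), measured in the longissimus dorsi, the long back muscle, of crossbred bulls. A probe set, the group of probes that reads 1 transcript on the array, was taken when the platform annotation gave it exactly 1 of these symbols. Of the 9 genes, 5 were represented, by 8 of the 24016 probe sets. These were NR1D1 and CRY1 with 1 probe set each, and PER2, BHLHE40 and NFIL3 with 2 each. PER1, CLOCK, DBP and ARNTL had none under this rule and were not analysed here.

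The animals were bulls of a Holstein x Charolais F2 cross, split by their content of intramuscular fat (IMF), which is laid down inside the muscle, into high and low. There were 10 animals of each IMF content and 1 single-colour Affymetrix cattle array per animal. The sample titles carry animal numbers with an S for 10 animals and without an S for the other 10, and each set holds 5 bulls of high and 5 of low IMF. The meaning of the S is not given in the labels, nor are the bulls' age or the time of day of sampling, and the labels pair no animals. The sets are called title series here, and the 4 combinations of IMF content and title series are called cells, with 5 animals each.

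The circadian clock is a feedback loop that runs in nearly every cell. The factors CLOCK and BMAL1 bind DNA elements called E-boxes and switch on their own repressors, among them the PER and CRY proteins, while NR1D1 (REV-ERB alpha) represses a second set of genes through elements called ROREs, and proteins such as DBP and NFIL3 act in opposite ways on D-boxes. Genes driven by E-boxes and D-boxes and genes repressed through ROREs therefore peak at different times of day, and in skeletal muscle the clock is known to shape fuel use and the timing of MYOD1, a muscle determination factor. NR1D1, PER2 and BHLHE40 were taken as the E-box and D-box arm, and NFIL3 and CRY1 as the RORE arm, although CRY1 is known to carry both kinds of element.

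The values are array intensities, given here as log2(intensity + 1). They are comparable between animals for 1 probe set, and not between probe sets. The arrays of the title series differed in technical measures. The hybridisation spike-in BioB lay between 186 and 312 intensity units in the S arrays and between 348 and 430 in the others, with no overlap. The spike-ins BioC, BioDn and CreX also had lower medians in S arrays, but their ranges overlapped. BioC ran from 604 to 1135 in S arrays and from 1133 to 1370 in the others. Array medians lay between 51.6 and 66.6 in S arrays and between 62.6 and 67.6 in the others. Whether the title series is a technical batch, a biological set or a sampling occasion cannot be told apart with these labels. Markers of muscle were measured in every array, with a summed intensity of 8 markers between 103336 and 123845 in S arrays and between 106498 and 113475 in the others. The summed liver markers had medians of 2009 and 1349 but reached 20916 in an S array and 21056 in an array without an S, and 4 arrays had an albumin signal over 2000. The part of this signal in the clock gene values was not tested beyond leaving out those 4 arrays. The summed endothelial markers lay between 1094 and 1958 in S arrays and between 1209 and 1896 in the others. The summed macrophage markers lay between 319 and 393 and between 202 and 326. No gene of a marker list with a probe set was at 0 in any array. The summed adipocyte markers had medians of 2545 in high and 839 in low IMF animals. By title series their medians were 2623 in S arrays and 1028 in the others, with overlapping ranges. In bulk muscle, fewer cells of a type and less RNA per cell cannot be told apart.

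NR1D1, the nuclear receptor that represses the RORE arm, differed more between title series than any other member measured by its brightest probe set. Among animals without an S, the high IMF bulls had log2 values of 6.32, 6.71, 6.52, 6.98 and 6.92, and the low IMF bulls 6.41, 6.59, 6.45, 5.68 and 6.85. Among S animals, the high IMF bulls had 7.08, 6.66, 7.36, 7.19 and 7.62, and the low IMF bulls 8.05, 7.58, 7.46, 7.42 and 7.49. Of the 10 S animals, 9 lay above the highest animal without an S. The difference was 0.85 on the log2 scale (SE 0.16, limma adjusted p = 9.48e-05), which is 1.80-fold. Of all 14409 probe sets tested, 68.3% passed in this comparison, so a call there is not particular to the clock.

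PER2, a repressor of CLOCK and BMAL1 and itself an E-box target, did not differ clearly between the title series. Its log2 values ran from 8.75 through a median of 9.56 to 10.24 in S animals and from 9.18 through 9.57 to 9.96 in the others, so the S range enclosed the other. The difference was 0.06 (SE 0.16, limma adjusted p = 0.764). The dimmer PER2 probe set gave -0.16 (adjusted p = 0.386 by limma). The SD among animals was 0.47 in the S series and 0.23 in the other, and that difference in spread was not tested.

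BHLHE40 (DEC1), an E-box target that competes for E-boxes as a repressor, ran from 10.86 through 11.41 to 11.79 in S animals and from 10.19 through 11.25 to 11.45 in the others. The ranges overlapped, with 4 of 10 S animals above every animal without an S. The difference of 0.30 (SE 0.15) had a limma adjusted p of 0.0910, and of 0.0410 with arrays centred on their medians (difference 0.36). The dimmer BHLHE40 probe set was higher in S animals by 0.62 (SE 0.18, limma adjusted p = 0.00493), and all 10 S animals lay above the median of the others on it.

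CRY1, a repressor that acts together with the PER proteins, was lower in S animals. Its values ran from 8.28 through 8.72 to 9.09 in S animals and from 8.93 through 9.28 to 9.65 in the others. Of the 10 S animals, 7 lay below every animal without an S, and all 10 lay below the median of the others. The level fell by 0.52 on the log2 scale (SE 0.11, limma adjusted p = 3.22e-04), to 0.697 of that in the others.

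NFIL3 (E4BP4), a RORE target that represses D-box genes, gave different results with its probe sets. The brighter ran from 8.73 through 10.08 to 10.69 in S animals and from 9.30 through 9.78 to 11.07 in the others, a difference of -0.02 (SE 0.23, limma adjusted p = 0.940). Its sign turned to 0.045 with arrays centred on their medians. The dimmer ran from 5.44 through 6.86 to 7.18 in S animals and from 6.68 through 7.34 to 8.24 in the others, a difference of -0.62 (SE 0.21, limma adjusted p = 0.0147). The NFIL3 difference between title series therefore depends on the probe set, although its probe sets had r = 0.96 across animals after removing the cell means (rho 0.97). Over the 5 genes, 1 was called higher and 1 lower in S animals by the brightest probe set, where 68.3% of all probe sets were called. The median difference of the 5 was 0.06 against -0.0025 over all probe sets tested.

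**Figure D1:**
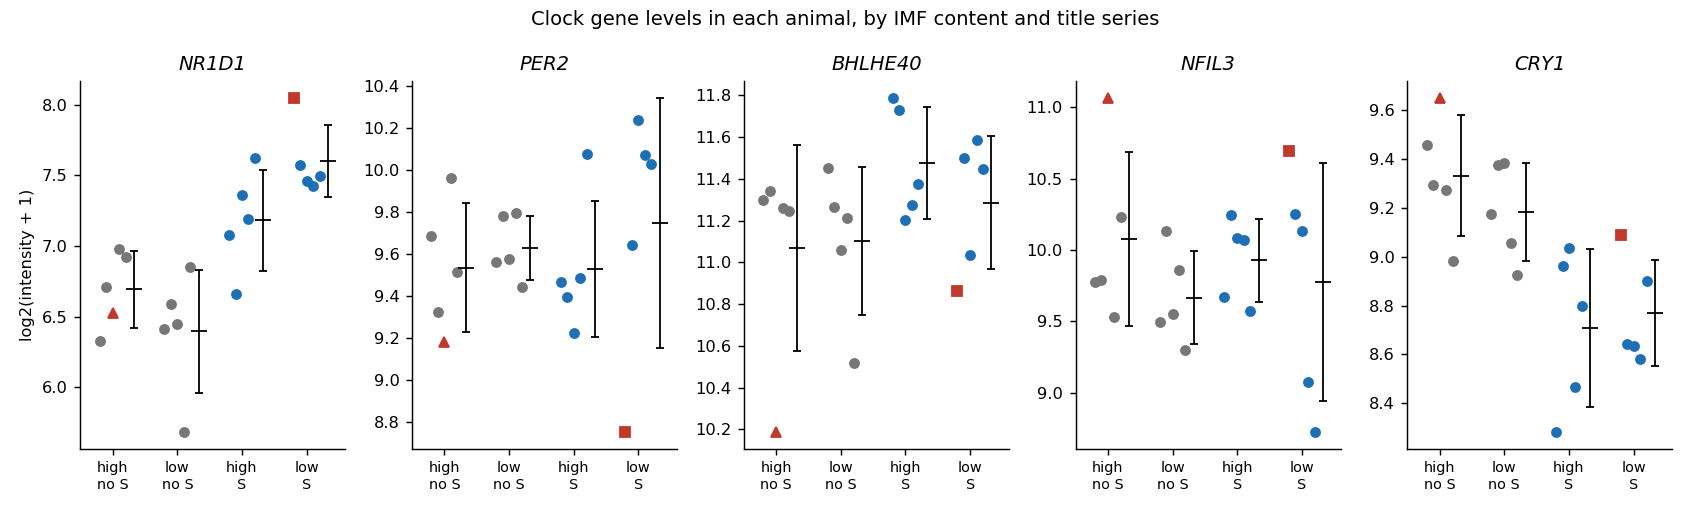
Log2(intensity + 1) of the brightest probe set of each clock gene, 1 point per animal, in the 4 cells of IMF content (high, low) and title series (grey without S, blue S); bars are the mean and SD of 5 animals, and the vertical axes do not start at 0. NR1D1 is higher and CRY1 lower in the S animals, while high IMF replicate 3 (red triangle) and low IMF replicate 6 (red square) are high in NFIL3 and low in PER2 or BHLHE40.

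The main comparison of the study set high IMF muscle against low IMF muscle. For the clock genes the groups overlapped throughout. NR1D1 ran from 6.32 through 6.95 to 7.62 in high IMF animals and from 5.68 through 7.14 to 8.05 in low IMF animals. PER2 ran from 9.18 through 9.47 to 10.08 and from 8.75 through 9.71 to 10.24. BHLHE40 ran from 10.19 through 11.29 to 11.79 and from 10.52 through 11.24 to 11.59. For NR1D1 and PER2 the low IMF range enclosed that of the high IMF animals, and for BHLHE40 the high IMF range enclosed that of the low IMF animals.

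The RORE arm overlapped as widely. NFIL3 ran from 9.53 through 9.93 to 11.07 in high IMF animals and from 8.73 through 9.71 to 10.69 in low IMF animals. CRY1 ran from 8.28 through 9.01 to 9.65 and from 8.58 through 8.99 to 9.38. For PER2, 8 of 10 high IMF animals lay below the low IMF median, and for NFIL3 7 of 10 lay above it.

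The log2 differences, high minus low, were -0.06 for NR1D1 (SE 0.24), -0.16 for PER2 (SE 0.16), 0.08 for BHLHE40 (SE 0.17), 0.28 for NFIL3 (SE 0.23) and 0.04 for CRY1 (SE 0.16). This fit had no term for title series, so the spread between the title series was part of these SE and p. With title series as a covariate limma also called 0 probe sets. None of the 5 passed (limma adjusted p = 0.999738 for each). Of all probe sets tested, 0 passed (0%) by limma, 239 had an unadjusted p under 0.05, and an unpaired t-test called 0 after adjustment with 258 under 0.05.

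Within each title series the picture for NR1D1 had opposite signs. With arrays centred on their medians, NR1D1 was -0.36 (SE 0.21) in high against low IMF animals of the S series, where 4 of 5 high IMF animals lay below every low IMF animal. In the series without an S it was 0.32 (SE 0.21), with 2 of 5 high IMF animals above every low IMF animal. Exact permutation tests over the 252 regroupings of 5 against 5 gave p = 0.0794 and p = 0.230, two-sided, where the smallest p possible is 0.00794. The interaction, the difference between these differences, was -0.68 (SE 0.29, unadjusted p = 0.0314, limma adjusted p = 0.960), so it did not pass. It stayed between -0.80 and -0.50 when each animal was left out in turn.

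The other members gave no comparable contrast. The interactions were -0.09 for PER2, 0.26 for BHLHE40, -0.22 for NFIL3 and -0.18 for CRY1, with standard errors from 0.19 to 0.46 and unadjusted limma p from 0.374 to 0.787. NFIL3 was higher by 0.21 in high IMF animals of the S series and by 0.43 in the other, with SE 0.33 for each. No exact permutation p of a member's brightest probe set within a title series was under 0.0794. Limma called 0 of 14409 probe sets (0%) for the interaction, with 595 at an unadjusted p under 0.05. It called 0 (0%) within the S series, with 1225, and 0 (0%) within the other, with 572.

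**Figure D2:**
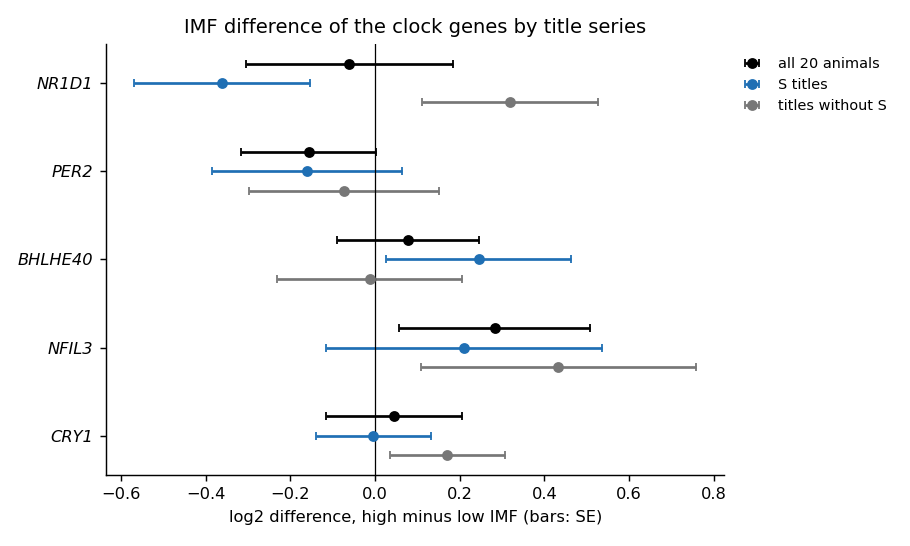
Log2 difference of high minus low IMF animals for each clock gene, with its SE, over all 20 animals (black, deposited scaling) and within S titles (blue) and titles without S (grey), both with arrays centred on their medians. The fit over all 20 animals had no title series term. NR1D1 lies at -0.36 and 0.32 in the title series, while the other genes have overlapping bars.

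Because clock genes of opposite arms peak at different times, the question of co-variation asked whether animals with more of one arm had less of the other. All correlations below are across animals with arrays centred on their medians. Since NR1D1 and CRY1 differed between title series, the correlations that matter are those after removing the cell means, and those within a title series. There were 10 pairs of members, 6 across the arms and 4 within an arm. The permutation p below are not adjusted for the 10 pairs or for the settings tried.

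NR1D1 and CRY1 show the effect of the title series on a pooled value. Over 20 animals r was -0.57 (rho -0.65, permutation p = 0.00822 and 0.00270). After removing the cell means r was -0.06 (rho -0.16, permutation p = 0.817 and 0.537), and it was 0.15 within the S series and -0.03 within the other. The pooled relation did not hold within title series. Without the 2 animals farthest from the NR1D1 median the pooled r was -0.80, with the title series difference still in it. With the cell means removed and the 2 animals farthest on that scale left out, r was -0.10 (permutation p = 0.731).

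The 4 other cross-arm pairs that did not involve NR1D1 were all negative after the cell means were removed. PER2 and NFIL3 had r = -0.55 (rho -0.42, permutation p = 0.0600 and 0.112). PER2 and CRY1 had r = -0.50 (rho -0.37, permutation p = 0.0392 and 0.133). BHLHE40 and NFIL3 had r = -0.46 (rho -0.34, permutation p = 0.0660 and 0.166), and BHLHE40 and CRY1 had r = -0.47 (rho -0.37, permutation p = 0.0655 and 0.137). Within the S series these 4 r were, in the same order, -0.64, -0.67, -0.33 and -0.61, and within the other -0.42, -0.32, -0.45 and -0.33. All 4 r were thus below 0 in each title series. The rho were, in the same order, -0.54, -0.53, -0.42 and -0.65 within the S series. Within the other they were -0.04, -0.13, -0.04 and -0.15, so the animals there showed little ordering. The pairs share genes, so their signs are not independent of each other. Without the 2 animals farthest from the median of the first gene of a pair, and with the cell means removed, the r were -0.52, -0.31, -0.37 and -0.54 (permutation p = 0.0393, 0.254, 0.222 and 0.0439). That setting was chosen after seeing the data.

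These relations were not past the threshold once all probe sets were considered. In limma regressions with the cells in the model, PER2 fell by 0.37 on the log2 scale (SE 0.14) per log2 unit of NFIL3, with unadjusted p = 0.0145 and limma adjusted p = 0.340. The slope of PER2 on CRY1 was -0.91 (SE 0.38, limma adjusted p = 0.172), and that of BHLHE40 on CRY1 was -0.83 (SE 0.37, limma adjusted p = 0.198). In these regressions limma called 5 of 14408 probe sets on NFIL3 (0.0347%) and 116 on CRY1 (0.805%). It called 1 on PER2 (0.00694%), which was the other PER2 probe set, and 0 on BHLHE40 (0%), with 803 at an unadjusted p under 0.05.

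As a description among 8959 probe sets with a single symbol, NFIL3 had the 23rd lowest correlation with PER2 and CRY1 the 50th lowest, while BHLHE40 had the 273rd highest. The median correlation with PER2 over those probe sets was 0.03. NR1D1, of the same arm as PER2, had the 1783rd lowest correlation with it. With NFIL3 the ranks were less extreme, as PER2 had the 196th lowest, BHLHE40 the 474th lowest and CRY1 the 1314th highest correlation. All these ranks are with the cell means removed. They rest on the same 20 arrays as the correlations themselves, with high IMF replicate 3 and low IMF replicate 6 included.

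Within an arm the members did not all move together. PER2 and BHLHE40 had r = 0.41 (permutation p = 0.0710) and NFIL3 and CRY1 r = 0.35 (permutation p = 0.204) after removing the cell means. NR1D1 had r = -0.15 with PER2 (permutation p = 0.505) and -0.26 with BHLHE40 (permutation p = 0.296). NR1D1 had r = 0.02 with NFIL3 (permutation p = 0.937), the gene it is known to repress. Across the arms 5 of 6 pairs were below 0, with a median of -0.47, and within the arms 2 of 4 were above 0.

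**Figure D3:**
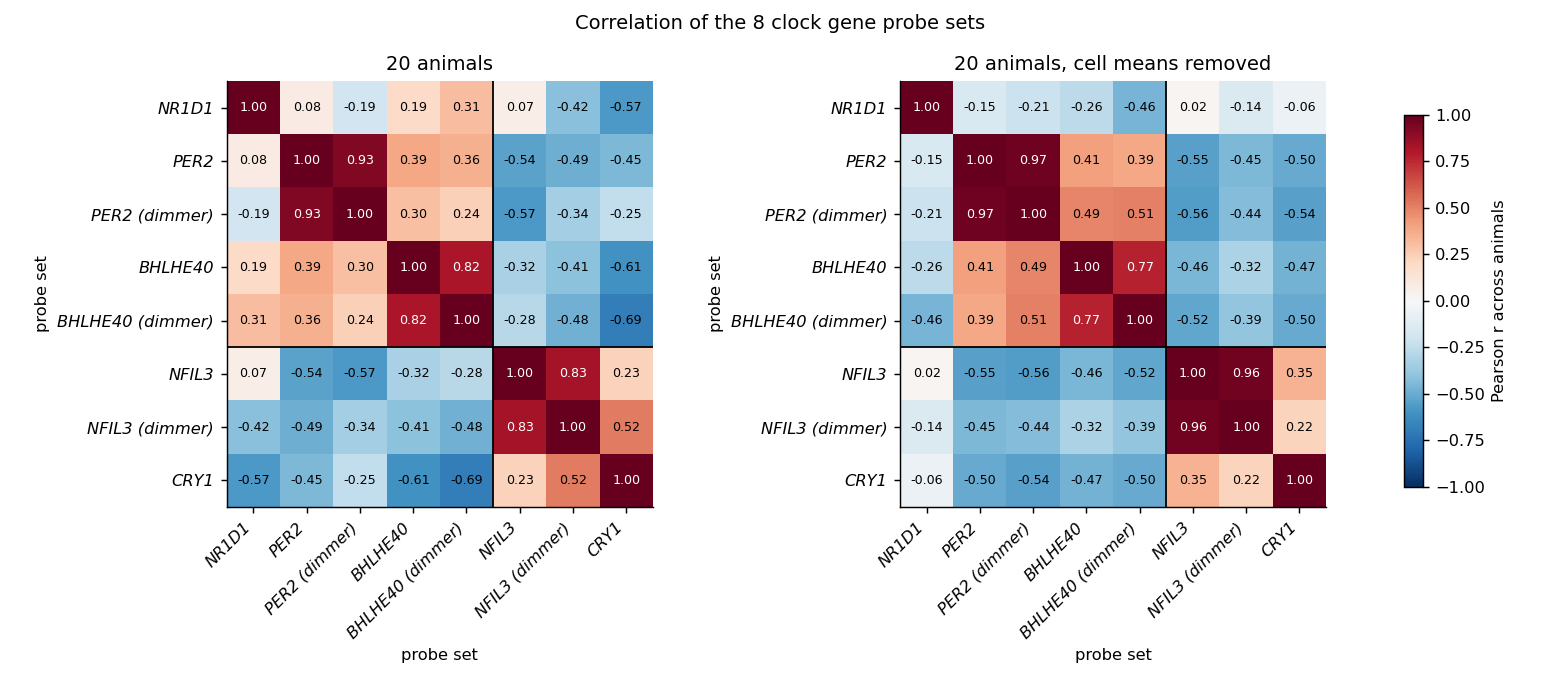
Pearson r across 20 animals between the 8 clock gene probe sets, with arrays centred on their medians (left) and after also removing the means of the 4 cells (right); lines part the arm of NR1D1, PER2 and BHLHE40 from that of NFIL3 and CRY1. Both probe sets of a gene agree closely (0.97, 0.77 and 0.96 on the right), PER2 and BHLHE40 are negative with NFIL3 and CRY1, and NR1D1 loses its pooled r of -0.57 with CRY1.

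The cross-arm pattern depended on 2 animals, high IMF replicate 3 of the series without an S and low IMF replicate 6 of the S series. Both had the highest NFIL3 values of all animals, 11.07 and 10.69. Relative to their cells they ranked first and second of 20 in NFIL3 and in CRY1, and 18th and last in PER2. In BHLHE40 they ranked last and 18th. Low IMF replicate 6 also had the highest NR1D1 value of all, 8.05.

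Without both animals, r after removing the cell means was -0.21 for PER2 and NFIL3 (permutation p = 0.506) and -0.16 for PER2 and CRY1 (permutation p = 0.569). It was 0.011 for BHLHE40 and NFIL3 (permutation p = 0.964) and -0.07 for BHLHE40 and CRY1 (permutation p = 0.799). Leaving out low IMF replicate 6 alone gave -0.35 for PER2 and NFIL3 and -0.30 for PER2 and CRY1. Leaving out high IMF replicate 3 alone gave -0.20 for BHLHE40 and NFIL3 and -0.26 for BHLHE40 and CRY1. Neither animal was among the 4 arrays with an albumin signal over 2000 or the 2 arrays with the lowest median signal.

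An arm level was formed for each animal as the mean of the centred log2 values of its genes. The arm levels had r = -0.68 (rho -0.51) after removing the cell means, and -0.31 (rho -0.35) without the 2 animals. Within the S series r was -0.75 (rho -0.82, n = 10 animals) and within the other -0.43 (rho 0.02, n = 10 animals). In the S series the ordering of the animals was thus opposed in both measures, and in the other the negative r came with no ordering. The difference between the title series was not tested, and these arm values are given without a p.

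**Figure D4:**
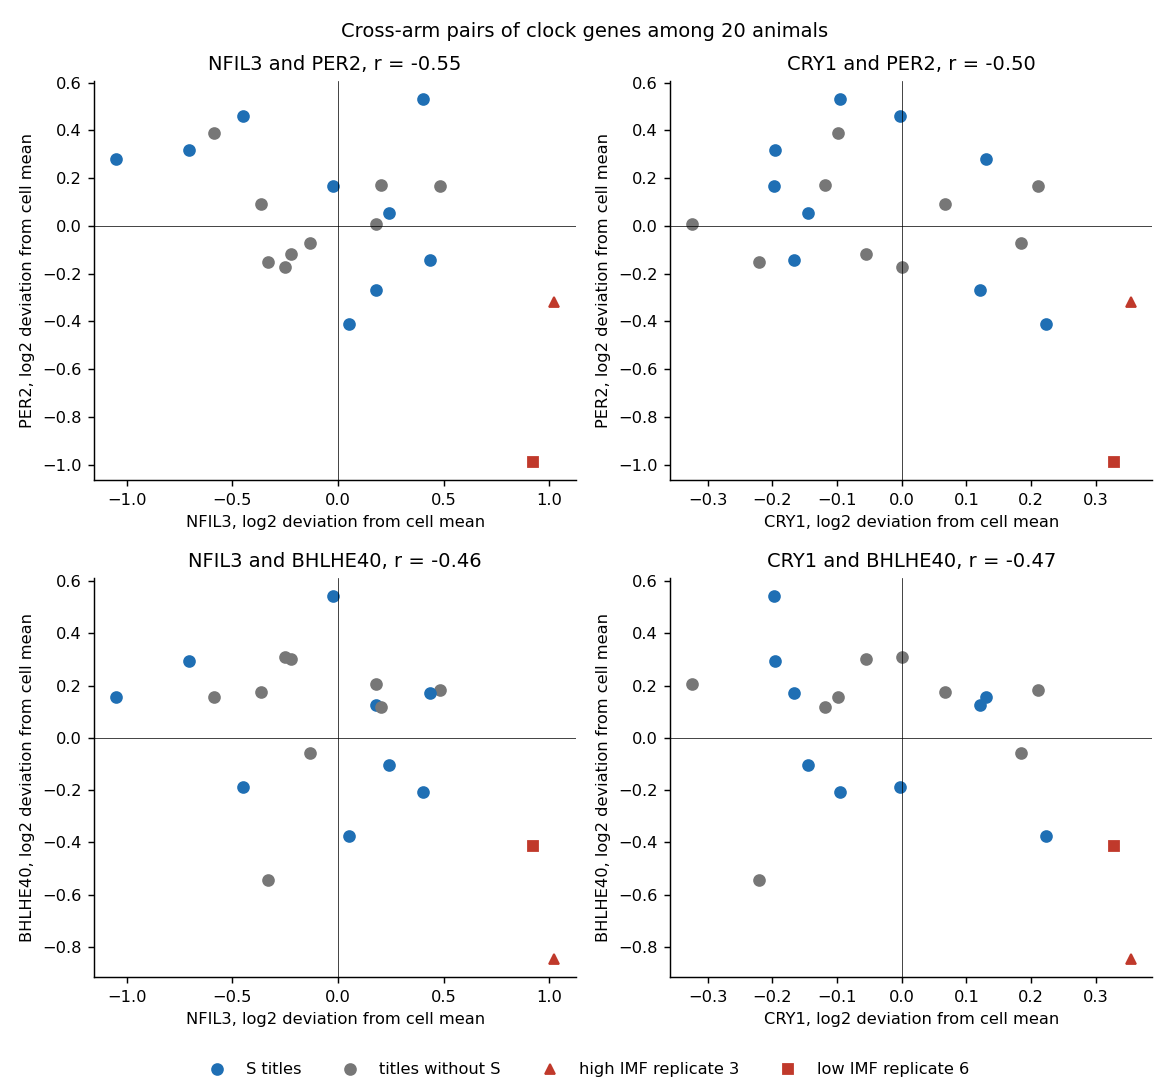
Log2 deviation of each animal from its cell mean for the 4 cross-arm pairs of PER2 and BHLHE40 with NFIL3 and CRY1, 1 point per animal (grey without S, blue S). The r of -0.55, -0.50, -0.46 and -0.47 are helped by high IMF replicate 3 (triangle) and low IMF replicate 6 (square), at the right and low end of every panel.

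By the rule for likeness, the genes most like NR1D1 over 20 animals were RPS4Y1 (r = 0.92), ZMYM3 (0.92), ATP6V0A1 (0.91), TIMM50 (0.90) and MAPKAPK3 (0.90). The most opposed were INTS12 (-0.86), DNAJC10 (-0.85), BTBD1 (-0.85), STX12 (-0.84) and CDC37L1 (-0.84). All 10 were called between title series by limma, the first 5 higher in S animals and the others lower, with differences from 0.43 to 0.58 and from -1.45 to -0.83. The regression on NR1D1 over all animals called 58.2% of probe sets, and with the cells in the model it called 0 (0%), with 737 at an unadjusted p under 0.05. With the cell means removed, TIMM50 (0.81) and ZMYM3 (0.78) were the most like NR1D1, and RPS4Y1 (0.73) ranked 4th.

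For PER2 with the cell means removed, the most alike were GTF2F2 (r = 0.73), FABP3 (0.70), HERPUD1 (0.70), NUDT14 (0.67) and RPL3 (0.67). FABP3 is the fatty acid binding protein of heart and oxidative muscle. The most opposed were KCNMB4 (-0.75), TARDBP (-0.69), AP1S1 (-0.67), VEGFA (-0.66) and FAM107A (-0.64). None of these 10 passed in the regression, whose 1 call was PER2 itself. Each of the 10 had an r farther from 0 within the S series than within the other. NUDT14 had 0.93 and -0.046, FABP3 0.85 and 0.35, TARDBP -0.84 and -0.28, and FAM107A -0.85 and -0.18. The values lay closer for GTF2F2 (0.76 and 0.69), RPL3 (0.80 and 0.78), AP1S1 (-0.73 and -0.59) and VEGFA (-0.72 and -0.57).

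For NFIL3 the likeness was closer. The most alike with the cell means removed were FLNC (r = 0.86), ZBTB16 (0.84), NABP2 (0.81), AMD1 (0.80) and AKIRIN2 (0.79). FLNC encodes filamin C, an actin crosslinker of the muscle Z-disc, and ZBTB16 (PLZF) is a transcription factor known to be induced by glucocorticoids. The most opposed were C23H6orf226 (-0.79), NT5C3A (-0.76), CPEB4 (-0.75), JMJD1C (-0.75) and SLC12A2 (-0.74).

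Of the 5 probe sets called in the regression on NFIL3, 1 was the other NFIL3 probe set, 2 were annotated to FLNC, 1 to ZBTB16, and 1, with a slope of -1.16 (SE 0.15), to no single symbol. ZBTB16 rose by 0.63 (SE 0.10) per log2 unit of NFIL3 (limma adjusted p = 0.0217). Its r was 0.85 within the S series and 0.85 within the other. FLNC rose by 0.76 (SE 0.11, limma adjusted p = 0.00873) and 0.58 (SE 0.10, limma adjusted p = 0.0281) with its probe sets. The slopes changed little without high IMF replicate 3 and low IMF replicate 6, at 0.68 for ZBTB16 and 0.79 and 0.56 for FLNC, with limma adjusted p from 0.0575 to 0.0739. Without both animals none of these 3 probe sets passed. Leaving out low IMF replicate 6 or low IMF replicate 9 alone also ended the ZBTB16 call, with limma adjusted p up to 0.0971. Leaving out low IMF replicate 6 or 10 ended that of the first FLNC probe set (up to 0.0734 by limma). For the second, leaving out high IMF replicate 2 or 4 or low IMF replicate 5, 6, 8 or 10 did so (up to 0.126 by limma).

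ZBTB16 belongs to a list of 10 genes known to respond to glucocorticoids, of which 7 were tested. Of these, 5 had r above 0 with NFIL3, with a median of 0.27 against 0.03 over all probe sets, and ZBTB16 was the 1 called. The median was higher in the lists of temperature genes (0.40) and other clock genes (0.33), with 0 called by limma in each, so the glucocorticoid list did not stand apart. CEBPD, a C/EBP factor, had a slope of 0.45 (SE 0.16, limma adjusted p = 0.324) and MT2A, a metallothionein, 0.39 (SE 0.15, limma adjusted p = 0.376). SGK1, a kinase of the same list, had -0.43 (SE 0.23, limma adjusted p = 0.507). The list was thus not uniform.

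CRY1 had a close follower in NAMPT, the enzyme that limits the rate of NAD salvage and a known E-box target of the clock. NAMPT was picked out of the other clock genes after its values were seen. Its brighter probe set rose by 1.85 (SE 0.30) per log2 unit of CRY1 with the cells in the model (r = 0.84, limma adjusted p = 0.0124). The slope passed in all 20 fits that left out 1 animal, with limma adjusted p from 0.00825 to 0.0335, and without high IMF replicate 3 and low IMF replicate 6 it was 1.67 (limma adjusted p = 0.0463). The dimmer NAMPT probe set had a slope of 1.27 (SE 0.44) that did not pass (limma adjusted p = 0.117). NAMPT was the 1 of 12 other clock genes called on CRY1, where 0.805% of all probe sets were called and 22.1% had an unadjusted p under 0.05. The number of probe sets called on CRY1 moved between 21 (without high IMF replicate 5) and 301 (without high IMF replicate 4). By limma 0 of the 12 were called on NR1D1, PER2, BHLHE40 or NFIL3.

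**Figure D5:**
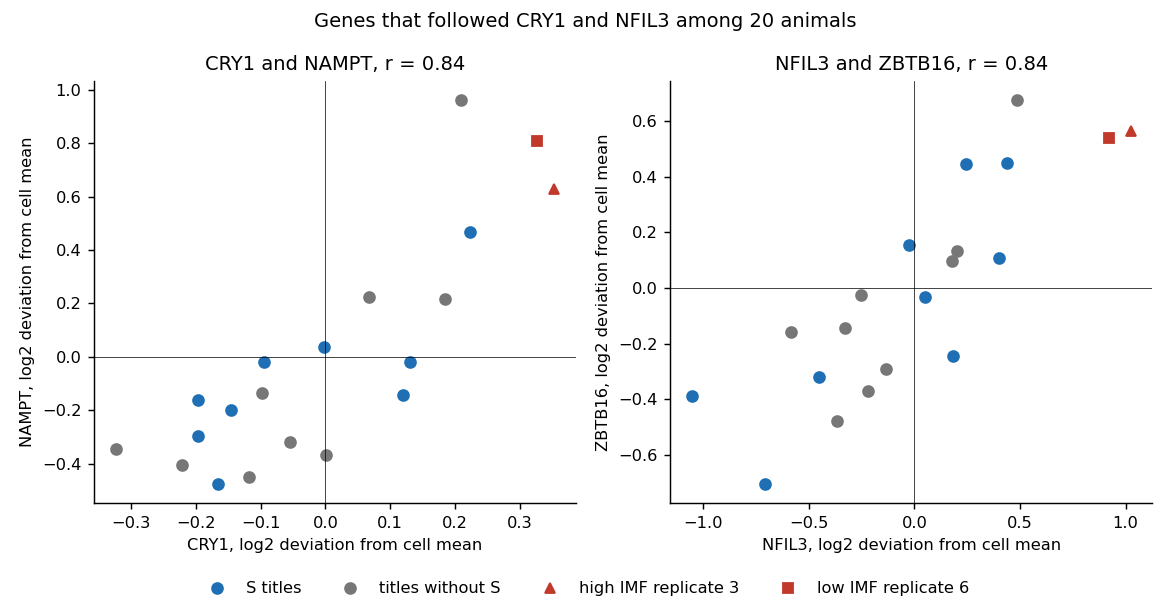
Log2 deviation of each animal from its cell mean for NAMPT against CRY1 (left) and ZBTB16 against NFIL3 (right), 1 point per animal (grey without S, blue S; triangle, high IMF replicate 3; square, low IMF replicate 6). Both pairs have r = 0.84, with animals of both title series along the same line.

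The list of other clock genes held 26 genes, of which 13 had a probe set and 12 were tested. Between title series 2 were called higher and 6 lower in S animals, which is near the 68.3% called over all probe sets, with a median difference of -0.18 against -0.0025 over all probe sets. PPP1CB, a catalytic subunit of the phosphatase PP1, which acts on PER proteins, ran from 11.59 to 12.11 in S animals and from 12.72 to 12.99 in the others, with no overlap. It fell by 0.99 (SE 0.07, limma adjusted p = 2.31e-10). HLF, a D-box activator of the DBP family, ran from 10.28 to 10.79 and from 11.29 to 11.76, again with no overlap, and fell by 0.91 (SE 0.07, limma adjusted p = 1.67e-09). Both were named for a small p in this same comparison. The share of all probe sets without overlap was not counted, so the separation is not read as particular to clock genes.

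CSNK1D, the casein kinase that phosphorylates PER proteins, was higher in every S animal (9.71 to 10.12) than in any other (8.63 to 9.33), by 0.83 (SE 0.09, limma adjusted p = 5.67e-08). The same limit holds for its separation as for PPP1CB and HLF. WEE1, a cell cycle kinase with E-boxes, fell by 0.62 (SE 0.12, limma adjusted p = 1.40e-04) with overlapping ranges. The other calls were USP2 at 0.79, FBXW11 at -0.63, TIMELESS at -0.37 and NAMPT at -0.92. NAMPT ran from 7.63 to 9.57 in S animals and from 8.73 to 10.44 in the others. NAMPT and CRY1 were thus both lower in S animals.

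Between high and low IMF animals 0 of the 12 passed in limma, and the median difference was -0.03, as over all probe sets. That fit, too, had no title series term. The smallest unadjusted limma p were those of NAMPT (-0.55, SE 0.28, p = 0.0627), WEE1 (-0.28, p = 0.143), GSK3B (0.19, p = 0.196) and TIMELESS (-0.09, p = 0.473). For NAMPT the difference was -0.68 within the S series and -0.34 within the other. For the interaction 0 of the 12 passed in limma, and the smallest unadjusted p were those of TIMELESS (0.24, p = 0.189), RORA (-0.31, p = 0.278), WEE1 (-0.22, p = 0.315) and NAMPT (-0.35, p = 0.371). RORA is the receptor that activates through ROREs.

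Lists of genes beside the clock were compared between title series as background for NR1D1 and CRY1. Their counts stand against 68.3% called over all probe sets, and none is read as particular to a list. Of 7 genes tested that lie downstream of the muscle clock, 2 were called higher and 3 lower in S animals. MYOD1 was higher by 1.39 (SE 0.17) and PDK4, which restrains glucose oxidation, fell by 2.01 (SE 0.32), with limma adjusted p of 4.22e-07 and 1.66e-05. Of 7 glucocorticoid genes 3 were called higher and 1 lower, led by PDK4, which is also in this list, and CEBPD (0.69, SE 0.18). Of 10 immediate early genes, which respond to stimulation within minutes, 3 were called higher and 0 lower, with IER2 at 1.25 (SE 0.20) and EGR1 at 0.81 (SE 0.46, limma adjusted p = 0.122). Of 8 temperature and heat shock genes 3 were called higher and 4 lower, with DNAJB1 at 1.03 (SE 0.29) and HSPD1 at -1.02 (SE 0.08). The part of sampling time, handling, temperature or array processing in these differences was not tested.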

How the data were processed

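Muscle RNA of 20 bulls was measured on 1 Affymetrix cattle array each. Per the labels' protocols, TRI Reagent was used for extraction, followed by DNase I digestion and RNeasy purification, and biotin-labelled cRNA was hybridised. The deposited values are linear intensities, 1 per probe set and array, made with GCOS 1.1.1 and Affymetrix Expression Console 1.1 per the submitters' processing notes. For the summarisation and scaling, the method was not given in the sources used here. Precision is limited by the number of arrays.

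Control probe sets were left out, values were taken as log2(intensity + 1), and the 40% of the 24016 probe sets with the lowest mean were dropped, leaving 14409, among them all 8 member probe sets. Of the 24016, 13292 had a single gene symbol in the platform annotation, 86 several and 10638 none. Limma 3.58.1 in R 4.3.3 (lmFit, eBayes, Benjamini-Hochberg at 0.05, two-sided) compared IMF groups, title series (with IMF as a covariate), and the 4 cells, the last with arrays centred on their medians, as were regressions and correlations. The series text names a paired test, but the labels pair no animals, so fits were unpaired. Nothing says more of the animals than their labels, so p-values measure the spread between these samples. Correlations used 100000 permutations, within cells where cell means were removed, with scipy 1.17.1. Regressions adjust over all other probe sets. The scripts were tested on simulated data.

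Named were every member probe set. Of the other clock genes the 4 with the smallest p per comparison were named, of each further list the 2 with the largest title series difference, and for NR1D1 the 5 genes most alike and the 5 most opposed. A planned regression on BMAL1 could not be run, since no probe set is annotated to it alone. Regressions on the other members, likeness to PER2 and NFIL3, and lists against members were added after the data were seen. The members and lists were chosen with earlier results of these data known. Alternatives were another scaling, quantile normalization, pseudocount 16, no filter, covariates, an unpaired t-test, other probe sets and leaving out arrays. Sequences and genome positions were not used here.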

Additional observations from a re-analysis of the deposited data

Results flagged for a closer look

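In 48 groups of 5 or 10 animals the highest or lowest value was set against the gap to its neighbour by Dixon's criterion. Of these, 5 stood apart. Chance gives about 1 in 20 for independent groups, but these groups share animals and genes, so that rate is no yardstick here. The 5 came from the same 2 animals. In low IMF replicate 6, NR1D1 was 8.05 against 7.42 to 7.58 in the other S animals with low IMF, and the dimmer PER2 probe set was 7.68 against 8.68 to 9.23 in the other low IMF animals. In high IMF replicate 3, BHLHE40 was 10.19, against 11.25 to 11.34 in the other high IMF animals without an S and 11.20 to 11.79 in all other high IMF animals, which makes 2 of the 5. In the same animal NFIL3 was 11.07 against 9.53 to 10.24 in the other high IMF animals.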

How the results depend on the processing

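Over all alternatives that were run, the IMF comparison and the interaction called 0 probe sets, and S against other titles 8852 to 12549. That range includes the fit without the filter, which tested 24016 probe sets instead of 14409, so its counts are not shares of 1 total. NR1D1 stayed higher (0.75 to 0.91) and CRY1 lower (-0.52 to -0.41) in S animals, past the threshold each time. Leaving out 1 animal gave 0 to 1 calls for IMF within the S series and 0 to 1 within the other. The regression on NR1D1 fell from 8391 calls to 0 with the cells in the model, and leaving out 1 animal moved the calls on NFIL3 between 2 (without low IMF replicate 6) and 38 (without high IMF replicate 3) and those on CRY1 between 21 (without high IMF replicate 5) and 301 (without high IMF replicate 4). Without high IMF replicate 3 and low IMF replicate 6 they were 17 and 402. The causes of these changes were not tested. No paired analysis was possible because the labels pair no animals.

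Small differences changed sign. NFIL3 between title series was 0.045 with median centring, 0.010 with quantile normalization, 0.079 without arrays with a high albumin signal and 0.014 without the arrays with the lowest median. Without the high albumin arrays BHLHE40 between IMF groups was -0.018 and the NFIL3 interaction 0.022. CRY1 between IMF groups within the S series was 0.036 with quantile normalization and 0.11 without the lowest median arrays. With the dimmer probe sets PER2 between title series was -0.16 and BHLHE40 between IMF groups without an S was 0.20. Leaving out 1 animal gave ranges across 0: CRY1 in the S series -0.060 to 0.077, NFIL3 there -0.053 to 0.44, BHLHE40 without an S -0.15 to 0.20, PER2 without an S -0.17 to 0.0055, and interactions of -0.33 to 0.046 for PER2 and -0.49 to 0.033 for NFIL3.

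Pooled correlations changed sign too, and not only those near 0. NR1D1 with PER2 (0.08) was 0.56 without the 2 animals farthest from the NR1D1 median (rho 0.62, permutation p = 0.0162 and 0.00776). It was -0.0014 with the deposited scaling, -0.0010 with quantile normalization, -0.15 with cell means removed, -0.069 in the S series, -0.17 in the other, -0.080 in low IMF animals, -0.19 with the dimmer probe set, and, with cell means removed, -0.29 without the 2 animals farthest from the median and -0.21 with the dimmer probe set. NR1D1 with BHLHE40 (0.19) was -0.26 with cell means removed, -0.54 in the S series and -0.14 in the other. With cell means removed it was -0.33 without the 2 animals with the highest NFIL3, -0.26 without the 2 farthest and -0.46 with the dimmer probe set. NR1D1 with NFIL3 (0.07) was -0.0051 with the deposited scaling, -0.24 in high IMF animals, -0.12 without the 2 farthest, -0.013 without the 2 with the highest NFIL3, -0.42 with the dimmer probe set, and, with cell means removed, -0.14 without those 2 and -0.14 with the dimmer probe set. NR1D1 with CRY1 (-0.57) was 0.15 in the S series. Without the 2 animals with the highest NFIL3, BHLHE40 with NFIL3 (-0.32) was 0.16, and 0.011 with cell means removed. Without the same 2, NFIL3 with CRY1 (0.23) was -0.11, and -0.15 with cell means removed. Without the 2 farthest NFIL3 with CRY1 was -0.084. Leaving out both of these animals, and the settings that combine cell means with another choice, were chosen after seeing the data.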

Other observations

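The immediate early genes, which code for transcription factors and regulators switched on within minutes of a stimulus, were set against the clock genes with the cell means removed. Of 10 tested, 9 had r above 0 with BHLHE40, where 52.9% of all probe sets did. The median r was 0.34 against 0.02 over all probe sets. JUNB had r = 0.59, NR4A1 0.56 and FOS 0.46, while MYC had -0.48. With CRY1, 1 of the 10 had r above 0, where 49.5% of all probe sets did, with a median of -0.33 against -0.01. That 1 gene was MYC, with r = 0.61, and NR4A1 had -0.49. In limma regressions 0 of the 10 passed on BHLHE40 and 0 of the 10 on CRY1. The genes named here were chosen after their values were seen, and BHLHE40 and CRY1 are themselves correlated in these arrays. How far these values rest on high IMF replicate 3 and low IMF replicate 6 was not tested.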
